A study of Homo sapiens with 12 samples.

Results

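The Polycomb complex genes EZH1, EZH2, SUZ12, EED, JARID2, RBBP7, CBX2, CBX7 and CBX8 were examined in RNA sequencing libraries of ZR-75-1, an oestrogen receptor-positive human breast cancer cell line. Members were the rows of the count table that carry these symbols, and all 9 were found among 60612 rows with a gene name. One genotype had received a non-targeting guide (sgControl). In the other, CRISPR–Cas9 had disrupted RB1, the gene of the retinoblastoma protein Rb. Each genotype spent 5 days in DMSO, the solvent, or in 500 nM abemaciclib, a drug that blocks the Rb kinases CDK4 and CDK6, and each of the 4 groups had 3 replicates. The knockout came from single sorted cells, and the sources used here do not say how many clones were sequenced, so that a difference between genotypes and one between clones cannot be told apart.

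Polycomb proteins keep genes silent through 2 kinds of complex. Polycomb repressive complex 2 (PRC2) methylates histone H3 at lysine 27. EZH2 or its paralogue EZH1 is the methyltransferase, and EED, SUZ12 and the histone-binding protein RBBP7 or RBBP4 complete the core. JARID2 is an accessory subunit that helps bring PRC2 to chromatin. Canonical PRC1 reads the methyl mark through the chromodomain of a CBX protein, of which CBX2, CBX7 and CBX8 are examined here. EZH2 is known as a gene of dividing cells whose transcription depends on E2F factors, the factors that unphosphorylated Rb holds in check, whereas EZH1 is known to prevail in tissues that do not divide.

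The promoters of EZH2, SUZ12 and EZH1 are shown because these windows held letters of the E2F type. Windows run from 250 bases before to 50 bases after the transcription start on the strand of the gene (RefSeq, GRCh38.p14), and 7 of the 9 members were matched to 10 windows. CBX2 and CBX8 were not matched. The letters searched on both strands were TTTCCCGC, TTTGGCGC, TTTCGCGC and TTTGCCGC, and, for the cell cycle homology region (CHR), TTTGAA and TTCGAA. No 2 of these matches overlapped in the windows printed. Capitals mark the matches, written as they read on the strand of the gene.
EZH2, chr7:148884242-148884541, minus strand: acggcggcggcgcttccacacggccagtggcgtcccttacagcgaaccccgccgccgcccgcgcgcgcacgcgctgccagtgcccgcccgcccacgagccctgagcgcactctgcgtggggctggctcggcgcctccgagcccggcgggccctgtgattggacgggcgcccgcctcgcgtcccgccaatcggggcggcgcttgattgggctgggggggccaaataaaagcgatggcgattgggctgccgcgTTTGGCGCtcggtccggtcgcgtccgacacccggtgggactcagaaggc
SUZ12, chr17:31936757-31937056, plus strand: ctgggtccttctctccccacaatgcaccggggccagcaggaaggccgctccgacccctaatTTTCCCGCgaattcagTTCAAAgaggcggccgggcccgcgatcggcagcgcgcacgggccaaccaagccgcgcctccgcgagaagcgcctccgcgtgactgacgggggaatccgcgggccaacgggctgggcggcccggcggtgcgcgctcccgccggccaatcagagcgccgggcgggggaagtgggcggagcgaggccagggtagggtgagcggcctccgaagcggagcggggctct
EZH1, chr17:42744991-42745290, minus strand: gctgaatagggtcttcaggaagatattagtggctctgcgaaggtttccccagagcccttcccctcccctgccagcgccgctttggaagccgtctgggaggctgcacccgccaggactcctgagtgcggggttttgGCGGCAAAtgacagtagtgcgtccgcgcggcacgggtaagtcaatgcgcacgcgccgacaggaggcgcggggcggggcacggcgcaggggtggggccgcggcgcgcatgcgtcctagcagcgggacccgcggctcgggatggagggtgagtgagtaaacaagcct

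In EZH2 the letters TTTGGCGC began at base 2 of the transcript, on the strand of the gene. In SUZ12 the letters TTTCCCGC began 189 bases before the start, and the letters TTTGAA were read on the opposite strand 173 bases before it. In EZH1 the letters TTTGCCGC were read on the opposite strand 115 bases before the start. Letters of the E2F type were present in 3.31% of all 35116 windows and the CHR letters in 16.4%, and neither was in the second window of EZH2 or in those of EED, JARID2, RBBP7 or CBX7. A match is a description of these letters and not evidence of binding.

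Libraries held 39907318 to 81636393 counts. The targeted gene RB1 had 29 to 63 raw counts in each knockout library and at least 2090 in each sgControl library, so no library went against its label. The luminal markers ESR1, GATA3, FOXA1, KRT8, KRT18, KRT19 and EPCAM had group means of at least 6386.3 normalized counts, while the basal markers KRT5, KRT14 and TP63 did not exceed 3.5. Of the fibroblast and leukocyte markers, COL1A1 had group means of 1940.2 to 2903.0, and COL1A2, PDGFRA, PTPRC, CD3E and CD68 did not exceed 2.5. Pairs of sgControl replicates in DMSO had a chi-square per gene of 23.8 to 141, against 4.00 to 23.2 in the other groups. This value grows with library depth, which was not corrected for. The 2 pairs with replicate 1 had 65.5 and 141, and the pair without it had 23.8, so that replicate 1 stood furthest apart. Mitochondrial genes held 2.82 to 4.13% of counts in DMSO and 5.44 to 8.53% in abemaciclib, and the part of this in the results below was not tested.

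In sgControl cells abemaciclib changed 8 of the 9 genes, where 25% of all 22723 genes tested were higher and 24.8% lower. EZH2, EED, CBX2, SUZ12 and RBBP7 were lower, JARID2, EZH1 and CBX8 were higher, and CBX7 did not pass the threshold. In RB1-knockout cells EED, CBX2 and CBX8 were lower and no member was higher, beside 15.1% and 14.9% of all 18546 genes tested. The counts below are normalized counts, that is, counts divided by the size factor of the library, and folds and adjusted p-values are from DESeq2 (two-sided Wald test, Benjamini–Hochberg adjustment over all genes tested, threshold 0.05). They are relative to the median gene of a library, and the amount of RNA per cell was not measured. The labels do not say what separates the replicates of a group. The study's methods describe its replicates in cell lines as independent but do not name these knockout libraries there, so p-values are read as covering the spread between these samples.

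**Figure D1:**
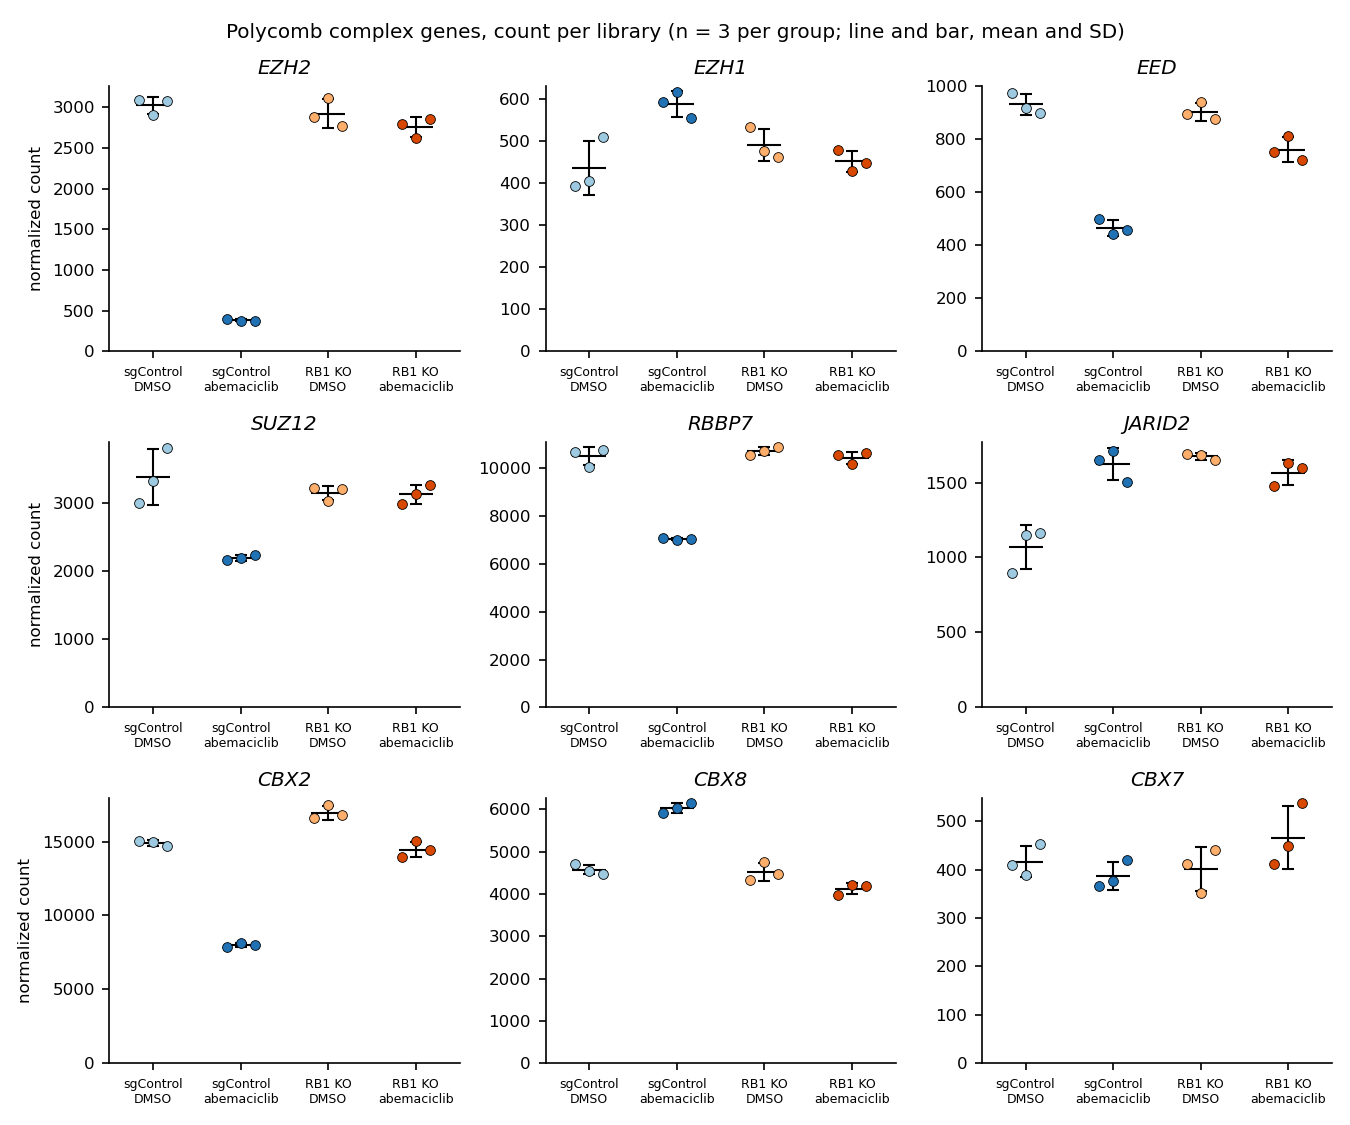
Normalized count (y axis, from 0) of each of the 9 genes in every library, by group (x axis). Points are libraries and the line and bar give mean and SD (n = 3). In sgControl cells in abemaciclib the EZH2 libraries lie between 372.6 and 395.5, below every library of the other groups, which lie at 2624.9 or above.

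EZH2, the methyltransferase of PRC2 in dividing cells, lies on chromosome 7 at positions 148807257 to 148884321 (GRCh38, minus strand). Its libraries had 3088.7, 2905.9 and 3072.3 normalized counts in DMSO-treated sgControl cells, against 395.5, 378.1 and 372.6 in abemaciclib. In the knockout they had 2880.0, 3113.6 and 2773.8 in DMSO and 2799.5, 2624.9 and 2853.5 in abemaciclib. The sgControl groups lay far apart, whereas the knockout groups overlapped with each other. EZH2 fell 7.92-fold in sgControl cells, a log2 fold change of −2.99 ± 0.07 (SE), with an adjusted p-value too small to be represented. In knockout cells the log2 fold change was −0.08 ± 0.06 (95% interval −0.21 to 0.04, adjusted p = 0.360). The difference between these responses was 2.90 ± 0.10 on the log2 scale (adjusted p = 9.62e-192). MKI67, a marker of dividing cells, moved with it. MKI67 had 21670.3, 33373.7 and 29061.8 normalized counts in sgControl cells in DMSO and 272.2 to 441.0 in abemaciclib, and 26768.1 to 38708.3 in the 6 knockout libraries. The part of the smaller number of dividing cells in the change of EZH2 was not tested.

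EZH1, the second methyltransferase, lies on chromosome 17 at 42700275 to 42745049 (minus strand). It had 391.9, 404.5 and 510.3 normalized counts in DMSO-treated sgControl cells, against 592.7, 615.5 and 555.0 in abemaciclib, with no overlap. The knockout had 534.2, 476.0 and 461.5 in DMSO and 477.9, 429.6 and 446.8 in abemaciclib, and these groups overlapped. EZH1 rose in sgControl cells by 0.43 ± 0.11 on the log2 scale (1.34-fold, adjusted p = 4.25e-04). In knockout cells the log2 fold change was −0.12 ± 0.12 (95% interval −0.35 to 0.11, adjusted p = 0.497). The responses differed by −0.54 ± 0.16 (adjusted p = 2.55e-03). The rise of EZH1 and the difference between genotypes kept their direction but were no longer called when libraries were scaled by total counts (adjusted p = 0.0558 and 0.0714).

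Set against each other within a library, the balance of the paralogues shifted towards EZH1 in sgControl cells. Counts in this ratio are not divided by length, so only its shift between groups is read. The ratio of EZH2 to EZH1 counts was 6.02 to 7.88 in DMSO and 0.614 to 0.671 in abemaciclib. In knockout cells it was 5.39 to 6.54 and 5.86 to 6.39. On the log2 scale the mean ratio differed by −3.42 between the sgControl groups and by 0.04 between the knockout groups. Per kb of exon, EZH1 made up 18.1% ± 2.1 (SD, n = 3) of the sum of EZH1 and EZH2 in sgControl cells in DMSO and 70.3% ± 1.0 in abemaciclib. In the knockout its share was 20.6% ± 1.6 and 20.1% ± 0.7. The sum itself was 342.8 ± 15.3 normalized counts per kb in sgControl cells in DMSO and 119.6 ± 4.9 in abemaciclib, so that the EZH1 gained was far less than the EZH2 lost. The divisor was the union of all annotated exons, 10.774 kb for EZH2 and 6.988 kb for EZH1. The lengths of the transcripts present were not measured, and other lengths would change the shares, the sum and possibly which paralogue was larger. These shares were chosen after the values were seen and are given with no test.

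**Figure D2:**
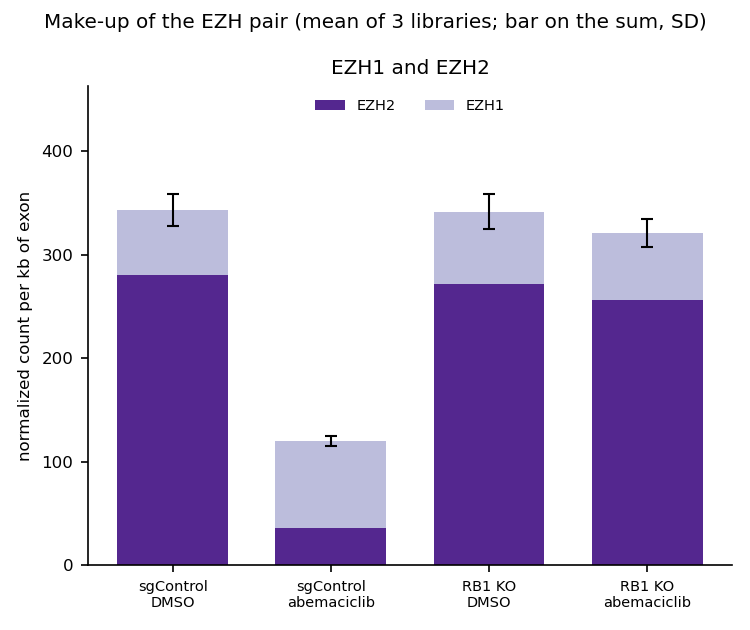
Normalized count per kb of exon (y axis, from 0) of EZH1 and EZH2, stacked by group (x axis). Each segment is a mean of 3 libraries and the bar is the SD of the sum. Per kb of all annotated exons, the sum falls from 342.8 to 119.6 in sgControl cells, and EZH1 is then its larger segment. Other transcript lengths could change both.

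EED, the subunit that binds the trimethylated mark, is on chromosome 11 at 86201212 to 86278813 (plus strand). It had 974.6, 919.3 and 901.5 normalized counts in DMSO-treated sgControl cells, against 497.9, 441.0 and 456.3 in abemaciclib. In the knockout it had 896.2, 940.9 and 875.3 in DMSO and 750.8, 811.8 and 721.2 in abemaciclib. The groups did not overlap in either genotype. EED fell by 1.00 ± 0.08 on the log2 scale in sgControl cells (adjusted p = 4.72e-34) and by 0.25 ± 0.08 in knockout cells (adjusted p = 9.21e-03). The responses differed by 0.76 ± 0.11 (adjusted p = 2.97e-10). The smaller fall in knockout cells did not pass without replicate 2 of the knockout in DMSO (adjusted p = 0.0753) or replicate 3 of the knockout in abemaciclib (adjusted p = 0.0736).

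SUZ12, a scaffold of the PRC2 core, is on chromosome 17 at 31937007 to 32001038 (plus strand). It had 3011.4, 3331.6 and 3818.2 normalized counts in DMSO-treated sgControl cells, against 2162.9, 2188.3 and 2239.3 in abemaciclib. In the knockout the values were 3218.8, 3028.8 and 3209.2 in DMSO and 2989.7, 3142.9 and 3269.1 in abemaciclib. The sgControl groups did not overlap and the knockout groups did. SUZ12 fell by 0.63 ± 0.08 on the log2 scale in sgControl cells (adjusted p = 4.46e-14), against −0.01 ± 0.08 in knockout cells (95% interval −0.17 to 0.15, adjusted p = 0.960). The difference of 0.62 ± 0.11 passed (adjusted p = 3.52e-07). The partial copy SUZ12P1 had 294.2 to 505.1 normalized counts per library, and reads that both share could be placed with either.

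RBBP7, a histone-binding WD40 protein, is on chromosome X at 16839283 to 16870362 (minus strand) and overlaps TXLNG on the other strand, so that without strand in the counting their reads could mix. It had 10691.3, 10075.8 and 10766.6 normalized counts in DMSO-treated sgControl cells, against 7081.3, 6997.9 and 7033.3 in abemaciclib. In the knockout all 6 libraries lay between 10165.8 and 10908.8. RBBP7 fell by 0.58 ± 0.04 on the log2 scale in sgControl cells (adjusted p = 4.67e-41) and changed by −0.04 ± 0.04 in knockout cells (95% interval −0.12 to 0.04, adjusted p = 0.546). The difference was 0.54 ± 0.06 (adjusted p = 3.83e-18). Its paralogue RBBP4, which fills the same place in PRC2, fell less in sgControl cells, by 0.22 ± 0.05 (adjusted p = 1.41e-05), and rose in knockout cells by 0.38 ± 0.05 (adjusted p = 7.65e-14). Normalized counts of RBBP4 ran from 6610.2 to 6937.1 in DMSO and from 5586.8 to 5887.3 in abemaciclib in sgControl cells. In the knockout they ran from 6747.2 to 7183.5 and from 8821.9 to 9295.3.

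The subunits of the PRC2 core thus differed in how much remained in sgControl cells in abemaciclib. Mean EZH2 was at 12.6% of its DMSO level, EED at 49.9%, SUZ12 at 64.9% and RBBP7 at 67.0%, while EZH1 was at 134.9%. Against the same DMSO level, knockout cells in abemaciclib held 91.3% of EZH2, 81.7% of EED, 92.5% of SUZ12 and 99.4% of RBBP7.

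**Figure D3:**
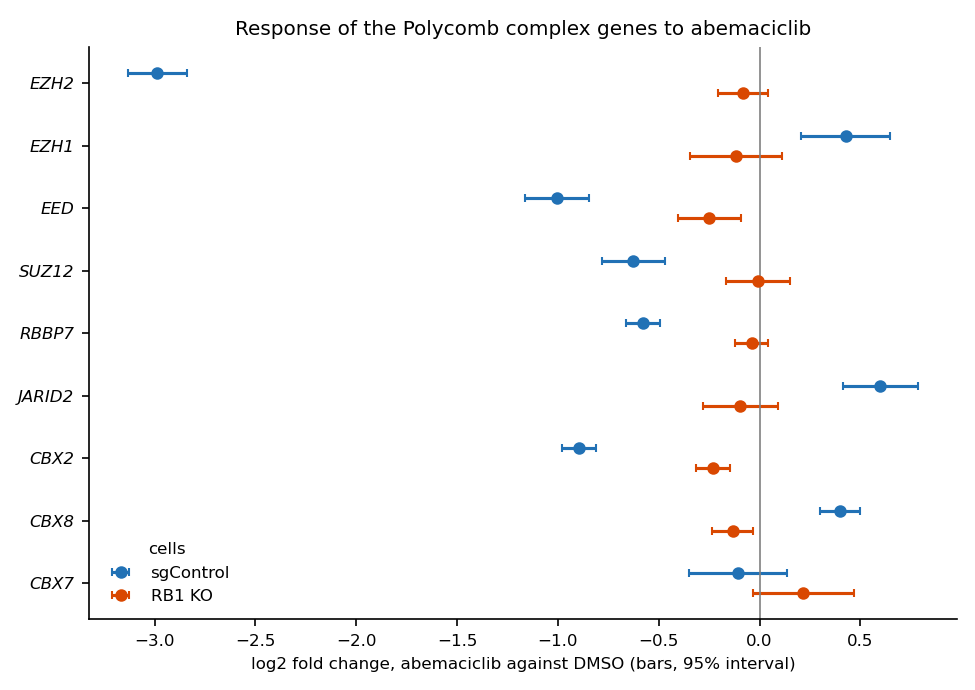
Log2 fold change, abemaciclib against DMSO (x axis), of the 9 genes (y axis) in sgControl and RB1-knockout cells, with 95% intervals from DESeq2 (3 libraries per group). EZH2 at −2.99 is furthest from 0 in sgControl cells, and all 9 knockout values lie between −0.25 and 0.22.

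JARID2, the accessory subunit, is on chromosome 6 at 15246069 to 15522042 (plus strand). It had 899.2, 1148.4 and 1162.9 normalized counts in DMSO-treated sgControl cells, against 1649.9, 1712.7 and 1503.7 in abemaciclib. The knockout libraries were already at this higher level, with 1690.0, 1685.7 and 1650.6 in DMSO and 1474.5, 1629.9 and 1596.7 in abemaciclib. JARID2 rose in sgControl cells by 0.60 ± 0.09 on the log2 scale (1.51-fold, adjusted p = 1.19e-09). In knockout cells its log2 fold change of −0.10 ± 0.09 did not pass (adjusted p = 0.498), although the groups did not overlap. The responses differed by −0.69 ± 0.13 (adjusted p = 1.21e-06). In DMSO the knockout exceeded sgControl by 0.64 ± 0.09 (1.56-fold, adjusted p = 1.97e-10), and in abemaciclib the genotypes differed by −0.05 ± 0.09 (95% interval −0.23 to 0.14, adjusted p = 0.690). JARID2 was the member with the largest difference between genotypes in DMSO.

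CBX2, a reader that can also compact chromatin, is on chromosome 17 at 79778148 to 79787983 (plus strand). It had 15042.4, 14956.8 and 14703.8 normalized counts in DMSO-treated sgControl cells, against 7847.5, 8132.3 and 8029.6 in abemaciclib. In the knockout it had 16577.7, 17461.9 and 16785.0 in DMSO and 13952.0, 15007.0 and 14392.8 in abemaciclib. No groups compared overlapped within a genotype. CBX2 fell by 0.90 ± 0.04 on the log2 scale in sgControl cells (adjusted p = 4.17e-94) and by 0.23 ± 0.04 in the knockout (adjusted p = 1.26e-06), with a difference of 0.67 ± 0.06 (adjusted p = 1.41e-26). In DMSO it was higher in the knockout by 0.19 ± 0.04 (adjusted p = 9.49e-05).

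CBX8 lies beside CBX2 on chromosome 17 at 79792132 to 79801683, on the minus strand, and moved the other way in sgControl cells. It had 4701.0, 4545.2 and 4480.9 normalized counts in DMSO and 5905.6, 6031.7 and 6157.6 in abemaciclib. In the knockout it had 4337.7, 4759.6 and 4469.9 in DMSO and 3979.5, 4204.2 and 4185.0 in abemaciclib. All 3 sgControl libraries in abemaciclib lay above every other library. CBX8 rose by 0.40 ± 0.05 on the log2 scale in sgControl cells (adjusted p = 1.63e-14), and the response in the knockout differed from it by −0.53 ± 0.07 (adjusted p = 1.57e-12). Its fall of 0.13 ± 0.05 in knockout cells was close to the threshold (adjusted p = 0.0350) and was lost under total-count scaling (adjusted p = 0.0980), without independent filtering (0.0607) or without any 1 of 8 libraries, among them replicate 2 of the knockout in DMSO (adjusted p = 0.230).

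CBX7, a reader known from differentiated and stem cells, is on chromosome 22 at 39120167 to 39152680 (minus strand). It had 408.7, 388.7 and 452.9 normalized counts in DMSO-treated sgControl cells, against 365.3, 377.3 and 420.2 in abemaciclib. In the knockout it had 411.2, 352.6 and 441.1 in DMSO and 411.1, 448.5 and 538.6 in abemaciclib. All 4 groups overlapped with each other. Its log2 fold change was −0.11 ± 0.12 in sgControl cells (95% interval −0.35 to 0.14, adjusted p = 0.518) and 0.22 ± 0.13 in the knockout (95% interval −0.03 to 0.47, adjusted p = 0.199), with a difference of 0.32 ± 0.18 (adjusted p = 0.139). In abemaciclib CBX7 was higher in the knockout by 0.27 ± 0.13, which missed the threshold (adjusted p = 0.0592) and passed with edgeR (adjusted p = 0.0477), with the replicate number as a block (0.0266) and in 5 other settings.

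Within a library, the readers shifted against each other as well. The ratio of CBX2 to CBX7 counts was 32.5 to 38.5 in sgControl cells in DMSO and 19.1 to 21.6 in abemaciclib, and that of CBX8 to CBX7 was 9.89 to 11.7 and 14.7 to 16.2. Neither pair of ranges overlapped, and the ratios moved in opposite directions. In the knockout the ratio of CBX2 to CBX7 was 38.1 to 49.5 and 26.7 to 33.9, and that of CBX8 to CBX7 was 10.1 to 13.5 and 7.77 to 9.68. Both were lower in abemaciclib there, with no overlap.

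Counted over the 9 members, all of which were tested in every comparison, 3 were higher and 5 lower in sgControl cells in abemaciclib. Of all 22723 genes tested, 25% were higher and 24.8% lower there. The median log2 fold change of the members was −0.58 and that of all genes tested 0.01. Scaling by total counts lowered the median gene by 0.13 and gave 4532 higher and 6779 lower genes in place of 5675 and 5630, and 2 higher and 5 lower members. In the knockout 0 members were higher and 3 lower, beside 14.9% and 15.1% of 18546 genes. The count of higher members was 0 also with edgeR and at an unadjusted p under 0.05 in DESeq2. The members' median was −0.10 and that of all genes 0.02.

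The difference between the responses, knockout minus sgControl, was higher for 5 members and lower for 3, beside 21.1% and 20.3% of 20932 genes. The medians were 0.54 and 0.03. With total-count factors 5 members were higher and 2 lower, and all genes split into 5467 and 3098 in place of 4417 and 4251, with the median gene higher by 0.14. CBX7 alone among the members did not pass. The responses in the 2 genotypes were measured in separate libraries, and the difference uses all 12.

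Between genotypes in DMSO 2 members, JARID2 and CBX2, were higher in the knockout and 0 were lower, beside 19.2% and 18.2% of 16755 genes. With edgeR, and at an unadjusted p under 0.05 in DESeq2, 0 were lower as well. EZH2 differed by −0.05 ± 0.06 on the log2 scale (95% interval −0.17 to 0.08), EED by −0.04 ± 0.08 (−0.19 to 0.11) and RBBP7 by 0.03 ± 0.04 (−0.05 to 0.11). SUZ12 differed by −0.11 ± 0.08 (adjusted p = 0.319) and EZH1 by 0.16 ± 0.11 (adjusted p = 0.272), and each passed when 1 library of sgControl in DMSO was left out, SUZ12 without replicate 1 (adjusted p = 0.0153) and EZH1 without replicate 3 (adjusted p = 0.0262). CBX8 differed by −0.02 ± 0.05 and CBX7 by −0.06 ± 0.13.

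In abemaciclib 5 members were higher in the knockout and 2 lower, beside 28.5% and 27.4% of 21529 genes. EZH2 was 7.23-fold higher (2.85 ± 0.07 on the log2 scale), CBX2 1.81-fold (0.85 ± 0.04), EED 1.64-fold (0.71 ± 0.08), RBBP7 1.48-fold (0.57 ± 0.04) and SUZ12 1.43-fold (0.51 ± 0.08). CBX8 was 1.46-fold lower (−0.55 ± 0.05) and EZH1 1.30-fold lower (−0.38 ± 0.11, adjusted p = 1.91e-03). The call of EZH1 was lost with total-count factors (adjusted p = 0.0794). These comparisons share libraries with the responses above and are no separate evidence.

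Apart from the ratios within a library, levels were compared between genes only per kb of exon, with all annotated exons of a gene joined. In sgControl cells in DMSO the order was CBX2 (2627.6 normalized counts per kb), RBBP7 (1432.0), CBX8 (1109.3), SUZ12 (517.0), EZH2 (280.5), JARID2 (171.4), EED (133.2), EZH1 (62.3) and CBX7 (55.8). Among neighbours in this order only the libraries of EZH1 and CBX7 overlapped. In abemaciclib CBX8 (1462.2) and CBX2 (1411.2) overlapped at the top, and EZH2 was last at 35.5 ± 1.1, below EED (66.5 ± 4.2) and CBX7 (51.9 ± 3.9), with no overlap. In the knockout the order was that of sgControl cells in DMSO under both treatments, with EZH2 and JARID2 overlapping, and EZH1 and CBX7 also overlapping in abemaciclib. The study's methods name a 3′ kit for RNA-seq and the labels a directional one. If only transcript ends were sampled, levels per kb would misstate the order between genes but not the changes of one gene. The same holds where the transcripts present are shorter than all annotated exons together. Both limits also apply to the shares and the sum of EZH1 and EZH2.

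**Figure D4:**
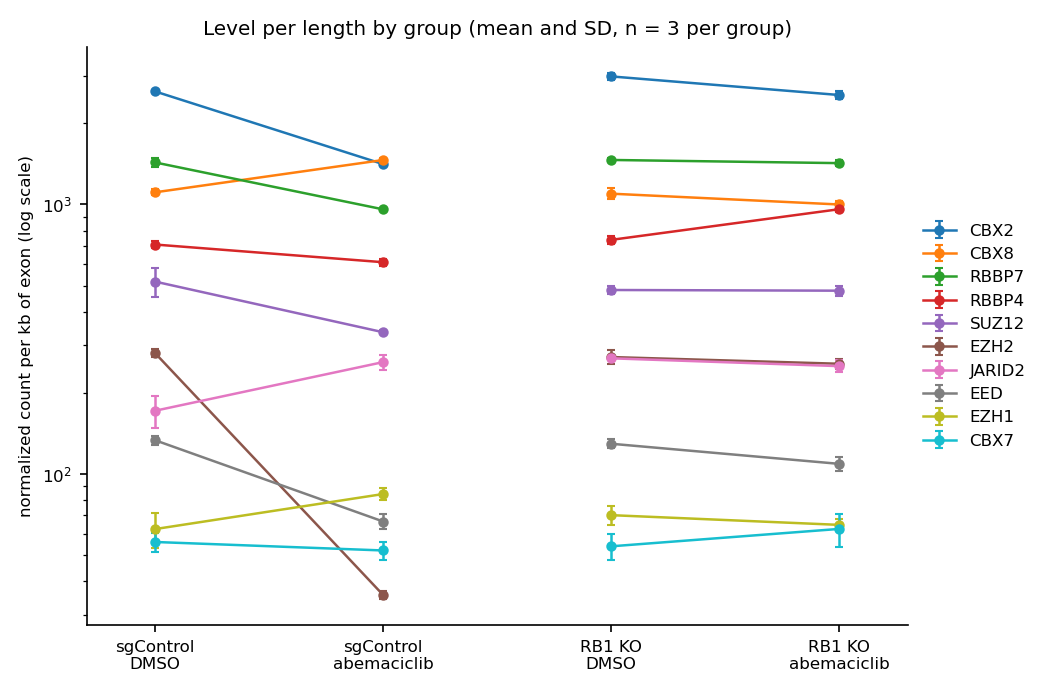
Normalized count per kb of exon (y axis, log scale) of the 9 genes and RBBP4 by group (x axis), mean and SD of 3 libraries, with lines joining the 2 treatments of a genotype. EZH2 drops from 280.5 to 35.5 in sgControl cells and crosses JARID2, EED, EZH1 and CBX7. In the knockout EZH2 goes from 271.3 to 256.1, and RBBP4 rises from 738.7 to 960.2.

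Across the 12 libraries, the genes most like EZH2 among 11884 compared were KIF2C, NEIL3, FOXM1, CTNNAL1 and PLK1, with Pearson's r of log2 normalized counts from 0.998 to 0.999. PLK1 is a mitotic kinase, KIF2C a mitotic kinesin and FOXM1 a transcription factor of dividing cells. KIF2C had 4937.1 ± 198.2 normalized counts in sgControl cells in DMSO, 504.0 ± 11.8 in abemaciclib, and 4687.3 ± 120.6 and 4571.1 ± 37.0 in the knockout. The 4 groups largely set such a correlation, and it is given as a description. For EZH1 the most similar were SPHK2, LINC00472, LINC01239, IRGQ and TIAM1 (r from 0.90 to 0.94), and for CBX7 they were ZNF354A, RND3, TDRP, PALB2 and ZNF619 (0.76 to 0.87).

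The other genes of these complexes were counted by list. Beside every list count below, 25% of all genes tested were higher and 24.8% lower in abemaciclib in sgControl cells. In knockout cells these shares were 14.9% and 15.1%. Of 14 genes of the PRC2 core and its cofactors, 13 were tested in sgControl cells and 5 were higher and 6 lower in abemaciclib, with a median log2 fold change of −0.02. Without the members, 3 were higher and 2 lower of 7. PHF19, a Polycomb-like cofactor that binds CpG-rich DNA, fell more than any member, from 2983.7 ± 308.6 to 118.0 ± 19.6 normalized counts in sgControl cells (−4.65 ± 0.11 on the log2 scale). It had 3226.7 ± 182.6 and 3482.7 ± 46.1 in the knockout, with a difference between responses of 4.76 ± 0.14 (adjusted p = 9.58e-250). The Polycomb-like protein gene PHF1 rose by 0.44 ± 0.07 (adjusted p = 3.17e-09) and EPOP, which encodes an elongin-binding PRC2 cofactor, by 0.58 ± 0.09 (adjusted p = 1.80e-09). In knockout cells PHF1 changed by −0.11 and EPOP by 0.19, neither past the threshold (adjusted p = 0.315 and 0.103). EPOP passed there without replicate 1 or 3 of sgControl in DMSO (0.20 each, adjusted p = 0.00909 and 0.0336). In knockout cells 1 gene of the list, RBBP4, was higher and 1, EED, was lower. The first count rose to 3 without either of those sgControl libraries and to 2 without replicate 2 of sgControl in abemaciclib, replicate 1 of the knockout in DMSO or replicate 3 of the knockout in abemaciclib. The second fell to 0 without replicate 2 of the knockout in DMSO or replicate 3 of the knockout in abemaciclib.

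Of 15 genes of canonical PRC1, all tested, 6 were higher and 6 lower in sgControl cells (median −0.11) and 5 and 5 in the knockout (median 0.06). In the knockout 3 were higher without replicate 1 of either treatment, and 3 were lower without replicate 2 in DMSO or replicate 3 in abemaciclib. SCML2, which encodes a PRC1-associated MBT-domain protein, fell from 709.9 ± 86.5 to 177.7 ± 9.1 normalized counts in sgControl cells (−2.00 ± 0.12, adjusted p = 2.78e-64) and had 618.8 ± 53.0 and 612.5 ± 24.0 in the knockout. Its responses differed by 1.99 ± 0.16 (adjusted p = 2.94e-34). SCML1, a relative of SCML2, fell by 0.80 ± 0.15 (adjusted p = 4.21e-07). The ubiquitin ligase gene RNF2 rose by 0.54 ± 0.07 (adjusted p = 3.27e-13). BMI1, which encodes a partner of RNF2, was lower in the knockout in DMSO by 0.50 ± 0.06 (adjusted p = 6.21e-18) and CBX6 was higher by 0.44 ± 0.05 (adjusted p = 1.36e-16). BMI1 overlaps COMMD3-BMI1 on the same strand, so that their reads could be placed with either.

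Variant PRC1 lacks the CBX readers of canonical PRC1. Of 16 genes listed for it, 1 was higher and 8 were lower in sgControl cells (median −0.28). In the knockout 4 were higher and 5 lower (median −0.05). The 4 became 2 without replicate 2 or 3 of the knockout in DMSO or replicate 1 or 3 of the knockout in abemaciclib, and the 1 became 2 without replicate 2 of sgControl in DMSO or replicate 3 of sgControl in abemaciclib. The gene that rose was SKP1 (0.37 ± 0.08, adjusted p = 3.18e-05). PCGF6, the defining subunit of one variant complex, fell by 1.18 ± 0.10 (adjusted p = 6.35e-33) and PCGF5 by 0.68 ± 0.06 (adjusted p = 2.03e-31). AUTS2, a subunit that works with PCGF5, rose in the knockout by 0.83 ± 0.10 (adjusted p = 1.74e-16), against −0.19 ± 0.10 in sgControl cells (adjusted p = 0.0843), and these differed by 1.02 ± 0.14 (adjusted p = 4.21e-13). In sgControl cells AUTS2 passed without replicate 1 in DMSO (−0.27, adjusted p = 0.00498) or replicate 1 in abemaciclib (−0.26, adjusted p = 0.0275). YAF2, which joins the variant complexes to RNF2, was lower in the knockout in DMSO by 0.49 ± 0.13 (adjusted p = 7.49e-04). Of 12 genes of the PR-DUB complex, which removes the PRC1 mark, and of the H3K27 demethylases, 4 were higher and 5 lower in sgControl cells (median −0.13) and 2 and 2 in the knockout (median −0.10). The knockout counts were not stable. The higher genes became 1 without any of the 3 knockout libraries in DMSO or replicate 1 or 2 in abemaciclib, and the lower ones became 0 without replicate 2 or 3 in DMSO or replicate 1 in abemaciclib and 1 without any of the other 3 knockout libraries. Between genotypes in DMSO 7 were higher in the knockout and 0 lower (median 0.27), beside 19.2% and 18.2% of all genes tested. FOXK1 was among the 7 (0.57 ± 0.10, adjusted p = 4.93e-07). ASXL1, the cofactor of the deubiquitinase BAP1, fell in sgControl cells by 0.58 ± 0.07, and its responses differed by 0.71 ± 0.09 (adjusted p = 2.42e-13). MBD6, another partner of BAP1, rose in sgControl cells by 0.64 ± 0.07 (adjusted p = 7.34e-20) and the demethylase KDM6B by 0.46 ± 0.11 (adjusted p = 5.03e-05). HCFC1, a cofactor that BAP1 binds, fell by 0.59 ± 0.10 (adjusted p = 6.58e-08). BAP1 itself was lower in the knockout in abemaciclib by 0.34 ± 0.05 (adjusted p = 2.70e-12).

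The heterochromatin protein 1 (HP1) genes CBX1, CBX3 and CBX5 share the chromodomain but are not among the CBX readers of canonical PRC1. In abemaciclib all 3 were lower than in DMSO in sgControl cells (median −0.60), and 1, CBX3, was higher than in DMSO in knockout cells. Between genotypes in DMSO 1 of them was higher in the knockout and 2 were lower, beside 19.2% and 18.2% of all genes tested. CBX3 was lower by 0.48 ± 0.06 (adjusted p = 1.16e-12). CBX5 fell from 10468.8 ± 1505.1 to 5361.5 ± 417.7 normalized counts in sgControl cells (−0.97 ± 0.10, adjusted p = 2.65e-23) and had 14123.2 ± 549.5 and 15264.4 ± 764.8 in the knockout, a difference of 1.08 ± 0.13 (adjusted p = 1.01e-14).

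**Figure D5:**
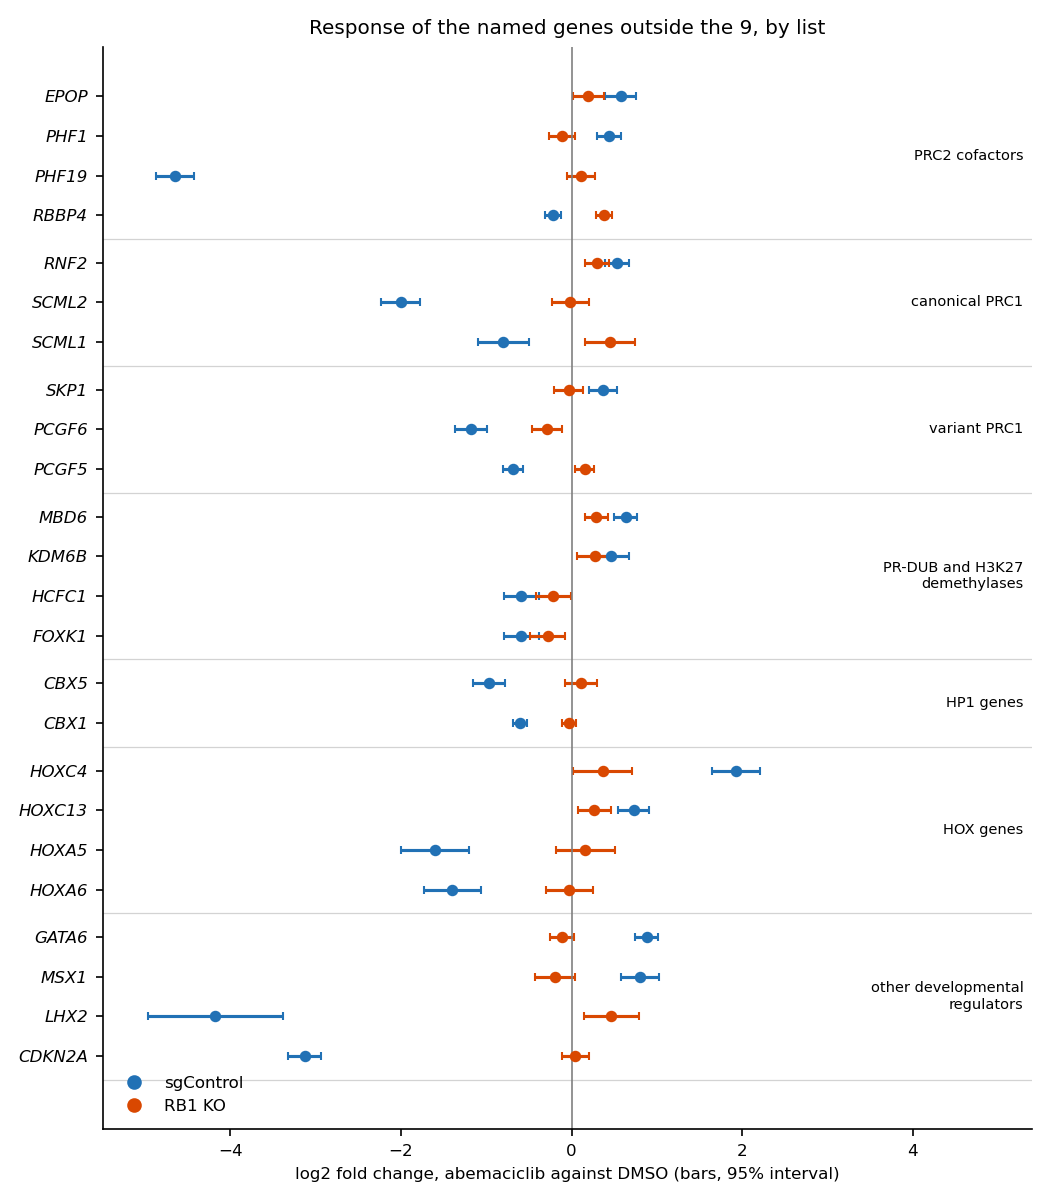
Log2 fold change, abemaciclib against DMSO (x axis), of the genes outside the 9 that the naming rule took from each list for the response of sgControl cells (y axis, 1 gene not shown), with 95% intervals (3 libraries per group). PHF19 at −4.65 and LHX2 at −4.18 lie furthest to the left in sgControl cells.

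Genes that Polycomb complexes are known to hold silent in other cells were counted last. Of 39 HOX genes, 9 had no count in any library and 9 had a mean of at least 100 normalized counts. In sgControl cells 27 were tested, of which 6 were higher and 8 lower (median −0.35), and in the knockout 3 were higher and 1 lower of 23 (median 0.15). The 8 became 5 without replicate 2 of sgControl in abemaciclib. In the knockout the 3 became 0 without replicate 1 in abemaciclib and 1 without replicate 1 or 2 in DMSO, and the 1 became 0 without any library in DMSO or replicate 1 or 3 in abemaciclib. HOXC4 rose in sgControl cells from 80.4 ± 5.3 to 307.7 ± 9.7 normalized counts (1.93 ± 0.14, adjusted p = 3.13e-39) and had 69.9 ± 4.9 and 90.2 ± 6.3 in the knockout. HOXA5 went the other way, from 153.5 ± 35.5 to 50.4 ± 4.5 (−1.60 ± 0.20, adjusted p = 1.57e-14), and had 233.1 ± 13.9 and 260.8 ± 35.8 in the knockout. Its responses differed by 1.77 ± 0.27 (adjusted p = 3.61e-10). HOXC13 rose in sgControl cells by 0.73 ± 0.09 (adjusted p = 1.18e-14) and HOXA6 fell by 1.40 ± 0.17 (adjusted p = 2.61e-15). In DMSO the knockout was higher in HOXA6 by 0.82 ± 0.14 (adjusted p = 8.80e-08) and lower in HOXB7 by 0.50 ± 0.10 (adjusted p = 5.48e-06). HOXA5 and HOXA6 overlap HOXA3, HOXB7 overlaps HOXB8 and HOXB9, and HOXC4 overlaps HOXC5 and HOXC6, on the same strand. Reads of such genes could be placed with either.

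Of 39 other developmental regulators that carry the Polycomb mark in stem cells, 10 had no count and 11 had a mean of at least 100. In sgControl cells 21 were tested, of which 4 were higher and 8 lower (median −0.54), and in the knockout 4 were higher and 2 lower of 16 (median −0.002). The 4 in sgControl cells became 2 without replicate 3 of sgControl in DMSO, replicate 2 of sgControl in abemaciclib or replicate 3 of the knockout in abemaciclib. The 4 in the knockout became 2 without replicate 3 in DMSO or replicate 1 or 2 in abemaciclib. GATA6 rose in sgControl cells from 1061.9 ± 27.9 to 1953.1 ± 133.4 normalized counts (0.88 ± 0.07, adjusted p = 8.61e-38) and MSX1 from 248.8 ± 7.4 to 434.5 ± 44.5 (0.80 ± 0.11, adjusted p = 5.66e-12). CDKN2A, which encodes the CDK4/6 inhibitor p16 and is a classical Polycomb target, fell from 1378.0 ± 143.5 to 157.4 ± 7.1 (−3.13 ± 0.10, adjusted p = 7.11e-212) and had 1557.7 ± 43.2 and 1607.2 ± 37.8 in the knockout. LHX2 fell from 85.6 ± 13.1 to 4.7 ± 1.4 (−4.18 ± 0.41, adjusted p = 6.01e-24), resting on 4 to 7 raw counts per library, and its responses differed by 4.64 ± 0.44 (adjusted p = 5.23e-25). LHX9 was higher in the knockout in DMSO, with 341.8 ± 5.9 against 84.6 ± 7.5 normalized counts (2.02 ± 0.13, adjusted p = 9.18e-49). PAX9 was lower there by 0.41 ± 0.10 (adjusted p = 2.98e-04). CDKN2A overlaps CDKN2B-AS1 on the other strand. Its count covers all transcripts of the gene, so the fall cannot be assigned to the transcript of p16. Histone methylation was not measured in these libraries.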

How the data were processed

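RNA of 12 samples was sequenced, and 1 table of raw read counts per gene was deposited by the authors. They trimmed reads with BBDuk, aligned them to GRCh38 (hg38) with STAR (2.7.5b) and counted them with featureCounts (2.0.1), versions per the submitters' processing notes. Counts were not normalized. Strand use and handling of multiply aligned reads are not given in the sources used here. The labels name a directional kit, the study's general methods a 3′ kit with far fewer reads.

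The 44 rows without a name (0% of counts) were left out, and 28342 of 60612 rows had no count. DESeq2 1.42.0 in R 4.3.3 was fitted to all 12 samples (term for group, median-of-ratios size factors, no shrinkage), and 5 contrasts were tested at an adjusted p of 0.05. The code was tested on simulated data. Alternatives were edgeR 4.0.16, total-count factors, only the groups compared, keeping only genes with at least 10 counts in at least 3 samples, no independent filtering, a replicate block and leaving out each library. Samples with the same replicate number deviated together in all 3 pairs only between genotypes in abemaciclib (correlations of 0.11 to 0.26), a hint from the data and not from the labels. Exon lengths and positions are from GENCODE release 44. Errors are SD of 3 libraries for levels and SE for log2 fold changes.

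Members and lists were chosen with earlier results of these data known. Named besides the members, RB1, MKI67 and RBBP4 were, per list, the called non-members with a mean of at least 100 normalized counts and the largest change, 2 rising and 2 falling in the sgControl response and 1 each way in both genotype comparisons, and the 5 genes most like EZH2, EZH1 and CBX7. One gene that this rule took is not reported here. The difference between responses is given for the named gene of each list where it was largest.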

Additional observations from a re-analysis of the deposited data

Results flagged for a closer look

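The response to abemaciclib differed between sgControl and RB1-knockout cells by the test of the difference itself (DESeq2, all 12 libraries) for 8 of the 9 Polycomb complex genes. By this test 21.1% of 20932 genes were higher and 20.3% were lower. On the log2 scale, knockout minus sgControl, the difference was 2.90 for EZH2, 0.76 for EED, 0.67 for CBX2, 0.62 for SUZ12 and 0.54 for RBBP7. It was −0.69 for JARID2, −0.54 for EZH1 and −0.53 for CBX8. Of these, EZH1 did not pass with total-count factors.

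Outside the 9, the difference was 0.60 for RBBP4. It was 4.76 for PHF19, 1.99 for SCML2, 1.02 for AUTS2, 0.71 for ASXL1, 1.08 for CBX5, 1.77 for HOXA5 and 4.64 for LHX2, the named gene of each list with the largest difference, of which LHX2 rests on few counts.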

How the results depend on the processing

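No called value reversed its direction in any alternative. Some values near 0 that were not called changed sign, among them SUZ12 and the EZH2 to EZH1 ratio in the knockout response. For the 5 counts of members called, 87 of 89 alternative values were within 1.5 times the reported count. Without replicate 2 of the knockout in DMSO or replicate 3 of the knockout in abemaciclib, 1 member, CBX2, was called in the knockout response instead of 3, and over the fits that leave out 1 library the count ran from 1 to 3. Of 801 alternative values for single members, 776 stayed on the same side of the threshold, 16 lost a call and 9 gained one, all of them for EZH1, SUZ12, EED, CBX7 or CBX8. EZH2, JARID2, RBBP7 and CBX2 had none. Total-count factors ended the call of EZH1 in 3 comparisons and shortened the lists of genes higher in sgControl cells from 5 to 3 for PRC2 and from 6 to 3 for canonical PRC1. That count went from 4 to 2 for PR-DUB with demethylases with total-count factors or only the groups compared, and for the developmental regulators also without independent filtering and with the replicate block. In the knockout, variant PRC1 genes higher went from 4 to 2 with edgeR, total-count factors or the block, and canonical PRC1 genes lower from 5 to 3 with total-count factors. PR-DUB genes lower in the knockout went from 2 to 0 with total-count factors, 4 with only the groups compared and 1 without independent filtering, and those higher from 2 to 1 with the first and the last of these. The 1 HOX gene lower became 0 without independent filtering or with the block. PRC2 genes higher went from 1 to 3 with only the groups compared, EPOP among them (0.19, adjusted p = 0.0110), and to 2 with low counts removed, and HP1 genes higher from 1 to 2 with only the groups compared. AUTS2 passed in sgControl cells with total-count factors (−0.33, adjusted p = 0.00571). For the 2 drug responses, the report gives the list counts that moved most when 1 library was left out. Those of the other comparisons moved as well and are not all given. Without replicate 1 of sgControl in DMSO, variant PRC1 genes with a higher difference between responses went from 7 to 11. Without replicate 3 of sgControl in DMSO, developmental regulators higher in the knockout in DMSO went from 7 to 4. In the reported fit 21.1% of all genes tested had a higher difference between responses, and 19.2% were higher in the knockout in DMSO.

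The labels do not say that replicate numbers pair samples, and same-numbered samples deviated together in every pair only between genotypes in abemaciclib (correlations of 0.15, 0.26 and 0.11, each sample correlating best with its own number). A replicate block moved no count of members by more than 1.5 times. With the block CBX8 did not pass in the knockout response (−0.13, adjusted p = 0.0621) and CBX7 passed between genotypes in abemaciclib (0.26, adjusted p = 0.0266), as it did in all but 1 of the other whole-set alternatives and in 2 of the fits without 1 library. CBX7 had 301 to 719 raw counts per library, and its intervals were the widest of the members in all 5 comparisons.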
